A study of Mus musculus with 4 samples.

Results

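The mitochondrial ribosomal protein genes were the 77 genes whose name on the array was Mrpl or Mrps followed by a number and at most 1 letter, out of 36918 gene names. By name, 48 belonged to the large subunit (Mrpl) and 29 to the small subunit (Mrps). Each gene was read from its brightest probe on 4 one-colour arrays of mouse pancreatic cancer cells of the C57BL/6 strain. The treated samples were K6 cells and K5 cells given halofuginone at 100 nM for 24 hours, 1 array each, and the controls were K6 cells and K5 cells given DMSO, 1 array each. What tells K5 from K6 is not stated in the sources used here; they are called lines below. Halofuginone blocks the prolyl-tRNA synthetase activity of the cytosolic glutamyl-prolyl-tRNA synthetase. The labels do not say whether cultures were separate, and p-values hold only for these samples. With 1 array per line and condition, p-values and standard errors rest on how far the halofuginone change differed between the lines. That spread was drawn toward the spread over all tested genes. P-values between the lines rest on the same spread, with the treated and control arrays of a line as its only repeats.

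The mitochondrial ribosome translates the few proteins encoded by mitochondrial DNA, all of them subunits of the oxidative phosphorylation complexes. Its proteins are encoded in the nucleus, made in the cytosol and imported. Some are homologues of bacterial ribosomal proteins and others exist only in mitochondria. The small subunit decodes the mRNA, and the large subunit holds the peptidyl transferase centre, the stalk that recruits translation factors, the central protuberance that contacts the tRNAs and the exit tunnel. The genes lack a single common regulator. Their promoters often carry sites of the ETS family factor GABP and of nuclear respiratory factor 1 (NRF1).

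Promoters are shown for the 2 members with the largest lower and the 2 with the largest higher change after halofuginone. Only members that moved the same way in both lines were considered. The choice was made by size of change in these data, and none of these genes passed the test below. Each promoter is given as the 250 bases before the transcription start from RefSeq on GRCm38.p6, printed 5′ to 3′ along the gene. Matches to the searched motifs are in capitals. The Mrpl34 stretch lies at chr8:71464676-71464925 on the plus strand. The Mrps36 stretch lies at chr13:100744660-100744909 on the minus strand. The Mrps18b stretch lies at chr17:35916441-35916690 on the minus strand, and the Mrps7 stretch at chr11:115603890-115604139 on the plus strand.
Mrpl34: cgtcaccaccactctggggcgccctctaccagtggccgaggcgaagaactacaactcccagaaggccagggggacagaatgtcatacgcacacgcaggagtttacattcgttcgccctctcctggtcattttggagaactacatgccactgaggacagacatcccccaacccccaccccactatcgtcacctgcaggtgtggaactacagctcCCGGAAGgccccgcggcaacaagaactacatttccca
Mrps36: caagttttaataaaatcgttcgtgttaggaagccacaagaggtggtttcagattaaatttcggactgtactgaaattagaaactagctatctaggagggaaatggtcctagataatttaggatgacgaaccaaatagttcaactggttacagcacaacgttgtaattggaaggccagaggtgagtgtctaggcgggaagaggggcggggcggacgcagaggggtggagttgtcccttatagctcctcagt
Mrps18b: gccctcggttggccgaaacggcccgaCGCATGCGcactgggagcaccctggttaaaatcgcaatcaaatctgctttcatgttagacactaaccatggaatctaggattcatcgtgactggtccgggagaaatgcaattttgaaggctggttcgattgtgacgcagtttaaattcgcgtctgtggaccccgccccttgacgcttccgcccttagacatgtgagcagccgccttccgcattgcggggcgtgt
Mrps7: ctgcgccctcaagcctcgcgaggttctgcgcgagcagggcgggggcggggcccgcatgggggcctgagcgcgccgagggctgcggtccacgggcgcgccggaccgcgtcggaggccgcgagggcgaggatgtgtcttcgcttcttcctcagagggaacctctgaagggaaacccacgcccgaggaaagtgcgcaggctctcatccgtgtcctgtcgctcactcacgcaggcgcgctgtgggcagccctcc
The Mrpl34 stretch held the ETS letters CCGGAAG. The Mrps18b stretch held the NRF1 letters GCATGCG on both strands, overlapping each other. The other 2 stretches held none of the 5 motifs searched.

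Promoters were in the RefSeq table for 68 of the 77 members, as 74 promoters, each with 250 bases before and 50 after the start. On either strand, CCGGAAG (ETS) stood in 25 of the 74, or 33.8%, against 8.86% of all 32851 promoters in the table. GCATGCG (NRF1) stood in 8, or 10.8%, against 3.58%, and AAGATGGCG (YY1) also in 8, against 1.40%. CACGTG (E-box) stood in 7, or 9.46%, against 7.15%. TGATGNAAT, the CCAAT enhancer response element read by ATF4 and its partners, stood in 0 of 74, against 0.965%. In 0 member promoters did a CCGGAAG match share bases with an AAGATGGCG match. The median GC content of the 250 bases before the start was 58.4% for members and 52.4% for all promoters. The ETS letters stood in 9 of 26 promoters of members that were higher in both lines after halofuginone, in 10 of 35 of those lower in both and in 6 of 13 of those that went opposite ways. In the same order, the NRF1 letters stood in 5, 1 and 2 promoters, the YY1 letters in 2, 5 and 1, and the E-box letters in 3, 3 and 1. Differences between these sets were not tested. A match is a run of letters only and was not tested for binding.

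All 77 members were well above background on all 4 arrays, so all of them were tested, among 19093 genes that were above background on at least 2 arrays. Values below are log2 signal minus the 75th percentile of the array. Spots well above background made up 54.0% and 53.1% of the halofuginone arrays of K6 and K5, against 48.6% and 47.2% of the control arrays, and no spot was saturated. The 4 arrays shared 1 slide, which leaves no batch to test. The 7 epithelial and ductal markers, such as Krt8, Krt18 and Krt19, were above background on all 4 arrays. Of the 5 acinar markers, 4 were above background on none, and Cela1 was measured at -1.53 in halofuginone K6 and -0.66 in halofuginone K5, against 1.07 in control K6 and 1.80 in control K5. Among immune markers, Ptprc, Cd3e and Itgam were above background on all 4 arrays and Adgre1 on none. Ptprc measured 1.48 in halofuginone K6 and 1.90 in halofuginone K5, against 1.303 in control K6 and 0.86 in control K5. Itgam measured 2.32 and 2.51 in halofuginone K6 and K5, against 2.66 and 2.75 in the controls, and Cd3e -0.47 and -0.22, against 0.15 and 0.82. No marker of the 3 endothelial or the 5 fibroblast and stellate ones was above background on all 4. A sum is the log2 of the added signals of a type's markers, those below background included. The endothelial sum was -1.38 and -3.12 after halofuginone in K6 and K5, against -3.29 and -4.11 in the controls. Its gap was mostly that of Kdr (-1.58 and -3.66, against -4.12 and -6.35), above background on 3 arrays. The fibroblast sum was -3.54 and -1.42, against -2.98 and -1.52. In each of these 2 types 1 marker was above background on none. In bulk samples fewer cells of a type and less RNA per cell cannot be told apart. The part of these cell types, and of the higher share of spots above background, in the results was not tested.

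The first comparison asks how halofuginone moved these genes in both lines. No member passed the test, in either direction: 0 of 77 were lower, against 5.08% of all tested genes, and 0 were higher, against 3.88% (limma with the line as a block, Benjamini-Hochberg adjusted p under 0.05). Among the genes above background on all 4 arrays, as all members were, 6.97% passed in either direction. The lowest adjusted p of a member was 0.064 (limma). At an unadjusted p under 0.05, 13 members were lower, against 16.9% of all tested genes, and 4 were higher, against 17.2%. The median log2 change of the members, halofuginone minus control, was -0.07, with a range from -1.75 to 1.21 and quartiles of -0.48 and 0.36. Over all tested genes the median was 0.01, the range -7.01 to 7.39 and the quartiles -0.57 and 0.60. The change was under 2-fold for 73 of the 77 members, or 94.8%, against 71.8% of all tested genes. The share was 75.4% among genes above background on all 4 arrays. It was 90.9% among cytosolic ribosomal protein genes and 88.9% among complex I subunit genes, so it was not particular to the members. Standard errors of the members' changes ran from 0.26 to 0.48. Under this setting the smallest change that passed anywhere in the table was 2.80-fold, a size that 1 member (Mrpl34) reached.

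**Figure D1:**
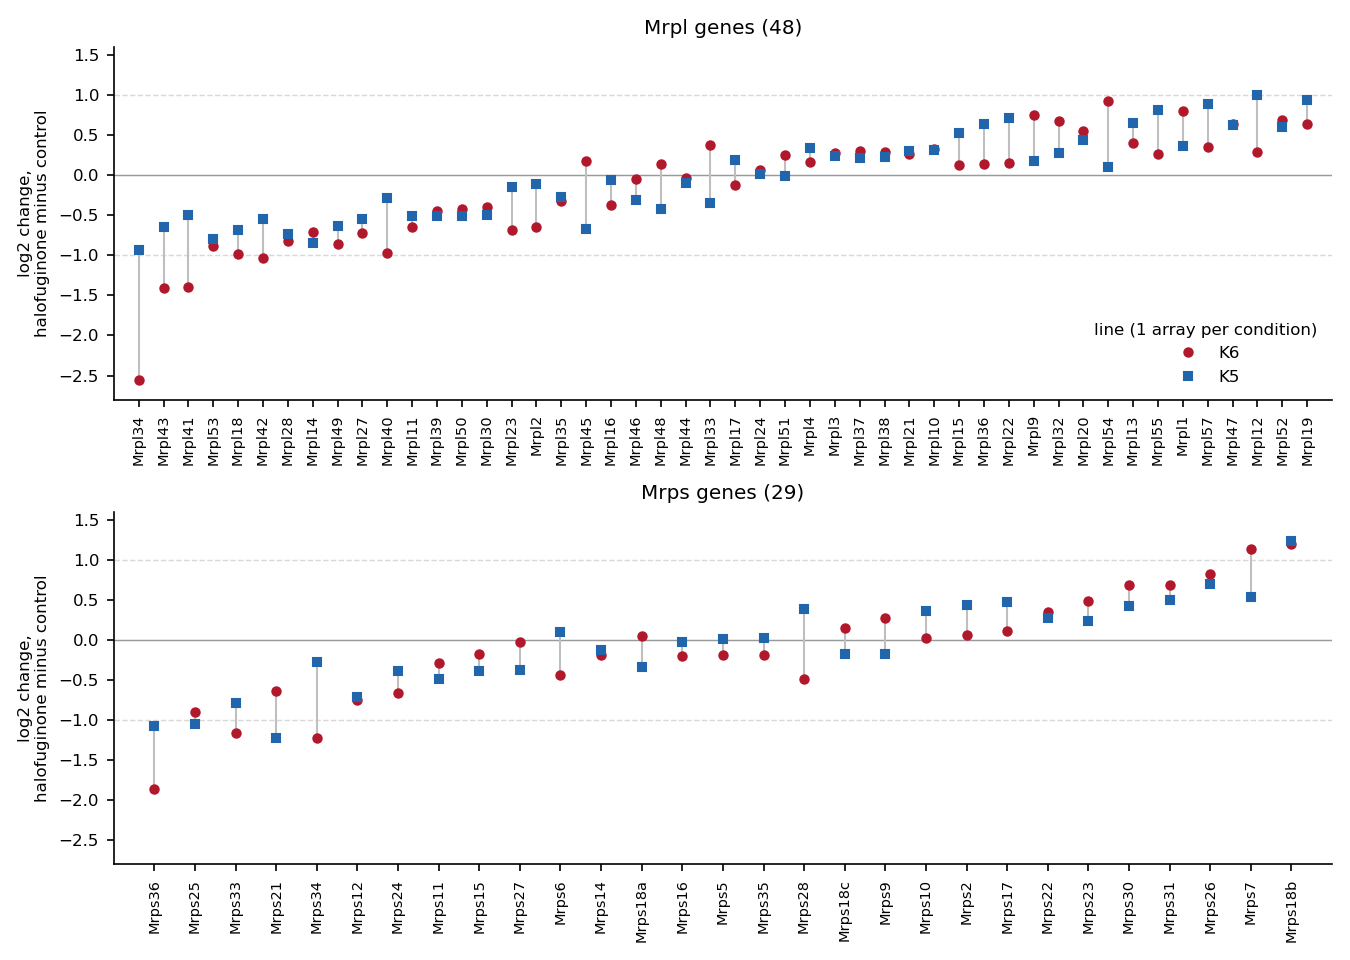
Log2 change after halofuginone, halofuginone minus control, of each of the 48 Mrpl genes (top) and 29 Mrps genes (bottom), ordered by the mean over both lines; red circles are K6 and blue squares K5, with 1 array per line and condition. Dashed lines mark 2-fold. Most members lie between the dashed lines in both lines, Mrpl34 in K6 lies at -2.56, and Mrps18b lies at 1.20 in K6 and 1.23 in K5.

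Members moved both ways, and mostly alike in the 2 lines. In both lines 32 members were higher and 33 lower after halofuginone, and 12 went opposite ways. The same sign in both lines was seen for 84.4% of members, against 76.7% of all tested genes. The median log2 change was 0.02 in K6 and -0.03 in K5. A change of at least 2-fold was seen in K6 for 7 members lower, against 16.4% of all tested genes, and for 2 higher, against 16.4%. In K5, 3 were lower, against 14.9%, and 1 was higher, against 14.1%. With 1 array per line and condition, these counts have no replicate check. Only Mrps36 was 2-fold lower and only Mrps18b 2-fold higher in both lines.

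**Figure D2:**
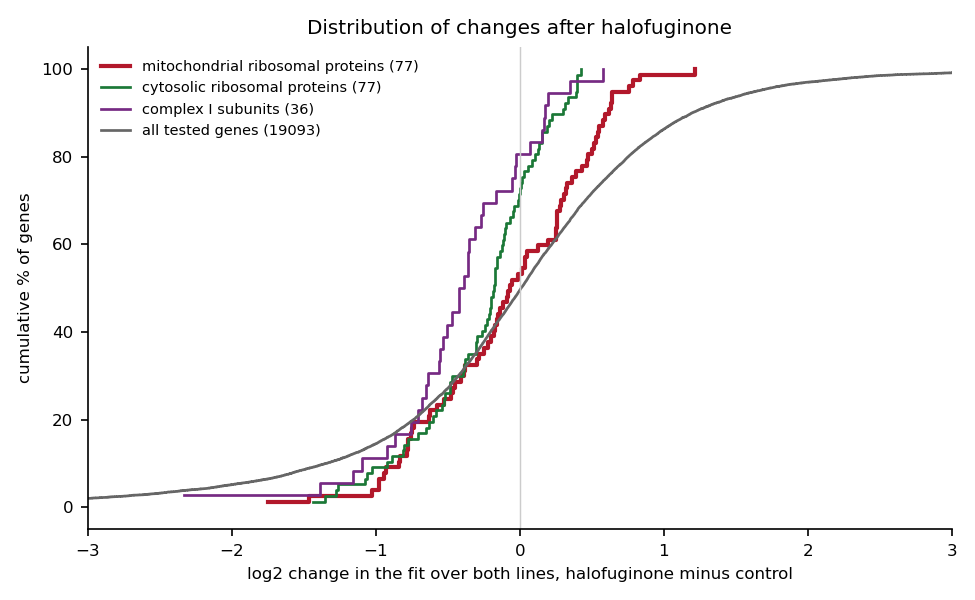
Cumulative share of genes by log2 change after halofuginone in the fit over both lines, halofuginone minus control, for the 77 mitochondrial ribosomal protein genes (red), 77 cytosolic ribosomal protein genes (green), 36 complex I subunit genes (purple) and all 19093 tested genes (grey). The axis ends at -3 and 3. The red curve crosses 50% near its median of -0.07 and is steeper than the grey one.

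The other large complexes gave the following values in the same fit. For the 77 tested cytosolic ribosomal protein genes the median log2 change was -0.18, with 16 higher and 48 lower in both lines. Of all 19093 tested genes, 7393 were higher and 7252 lower in both lines. Of the 77, 0 passed, and 11 were lower at an unadjusted p under 0.05, against 16.9% of all tested genes. For the 36 tested complex I subunit genes, which encode the respiratory complex that holds most mitochondrially translated subunits, the median was -0.40, with 5 higher and 28 lower in both lines. Of these, 1 passed as lower: Ndufv3, at 2.87 in halofuginone K6 and 3.94 in halofuginone K5, against 5.35 in control K6 and 6.13 in control K5 (log2 change -2.33, SE 0.27, limma adjusted p = 0.039). The differences between these gene groups were not tested.

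Large and small subunit genes overlapped throughout. Of the 48 Mrpl genes, 22 were higher and 21 lower in both lines, with a median log2 change of 0.02 and a range from -1.75 to 0.78. Of the 29 Mrps genes, 10 were higher and 12 lower in both lines, with a median of -0.09 and a range from -1.46 to 1.21. The Mrpl median minus the Mrps median was 0.12. It was 0.31 in K6 alone and -0.01 in K5 alone, so the difference lay within the spread between the 2 lines. Names do not fully follow the structure, since Mrps18a and Mrps30 sit in the large subunit and Mrps36 is now held to be a component of the alpha-ketoglutarate dehydrogenase complex. With these moved or left out, the difference was 0.11.

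By origin, the 48 members with a bacterial homologue had a median log2 change of 0.02, and the 28 mitochondrion-specific ones -0.16, with 14 of the 28 lower and 10 higher in both lines. The stalk shows how members of 1 region went apart. Mrpl12, the stalk protein that also binds the mitochondrial RNA polymerase, had a change of 0.64, and Mrpl10, its anchor, 0.32, whereas Mrpl11, at the stalk base, had -0.57 and Mrpl53, a mitochondrion-specific protein of the stalk, -0.84. Each of the 4 had the same sign in both lines, and 0 of the 4 passed the test. The 8 central protuberance genes ran from -0.83 for Mrpl18, which in mammals packs against the structural RNA of that region, to 0.55 for Mrps30, and the 8 exit tunnel genes from -0.48 for Mrpl39 to 0.63 for Mrpl47.

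**Figure D3:**
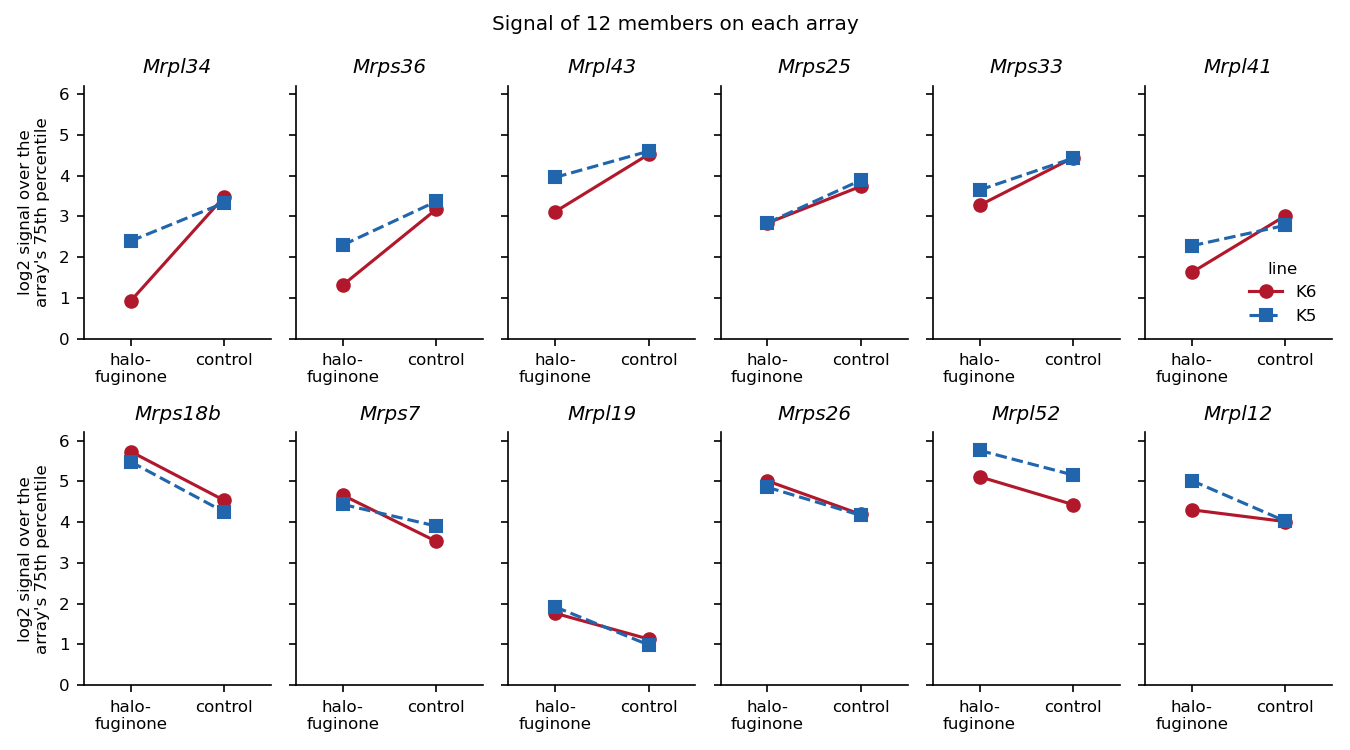
Log2 signal minus the array's 75th percentile on each array for the 6 members with the largest lower (top) and higher (bottom) changes that had the same sign in both lines. Each panel has the halofuginone arrays on the left and control arrays on the right, with red circles for K6 and blue squares for K5. Mrps18b sits at 5.73 and 5.48 after halofuginone, above 4.53 and 4.25 in the controls.

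The largest decrease in signal was that of Mrpl34, the homologue of the small basic bacterial protein L34 in the large subunit. Its probe (mm9 chr8:73989526-73989585) measured 0.92 in halofuginone K6 and 2.39 in halofuginone K5, against 3.48 in control K6 and 3.33 in control K5. Both treated arrays lay below both controls, and halofuginone K6 was far lower than halofuginone K5. The log2 change was -2.56 in K6 and -0.94 in K5, or -1.75 in the fit (SE 0.48, limma adjusted p = 0.096). Mrps36 (probe at mm9 chr13:101506215-101509014) measured 1.32 in halofuginone K6 and 2.30 in halofuginone K5, against 3.18 in control K6 and 3.37 in control K5. The groups did not overlap, and the change was -1.46 (SE 0.32, limma adjusted p = 0.069). Members here and in the next paragraphs were chosen for large changes of the same sign in both lines. That choice favours groups that do not overlap, and the share of all tested genes without overlap was not counted.

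The next 4 lower members are mitochondrion-specific proteins. Mrpl43, a large subunit protein, measured 3.11 in halofuginone K6 and 3.96 in halofuginone K5, against 4.52 in control K6 and 4.60 in control K5 (change -1.03, SE 0.32, limma adjusted p = 0.118). Mrps25 of the small subunit measured 2.83 and 2.84 in halofuginone K6 and K5, against 3.74 and 3.89 in control K6 and K5, so its lines lay close together (change -0.98, SE 0.26, limma adjusted p = 0.090). Mrps33, also of the small subunit, measured 3.27 and 3.65 in halofuginone K6 and K5, against 4.44 and 4.43 in the controls (change -0.98, SE 0.27). In each of these the treated arrays lay below the controls. Mrpl41, a large subunit protein, measured 1.62 and 2.28 in halofuginone K6 and K5, against 3.01 and 2.78 in the controls, without overlap (change -0.95, SE 0.34, limma adjusted p = 0.146).

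The member with the largest increase in signal, and the lowest adjusted p, was Mrps18b, 1 of 3 mammalian homologues of bacterial S18 and a small subunit protein. Its probe (mm9 chr17:36047331-36047390) measured 5.73 in halofuginone K6 and 5.48 in halofuginone K5, against 4.53 in control K6 and 4.25 in control K5. Both treated arrays were above both controls by a like amount in the 2 lines. The change was 1.21 (SE 0.26, limma adjusted p = 0.064), and its 3 measured probes gave changes from 1.15 to 1.43. Its paralog Mrps18a, whose protein lies in the large subunit, measured 2.96 and 2.51 in halofuginone K6 and K5, against 2.91 and 2.86 in the controls (change -0.15, SE 0.27). Mrps18c, the paralog that takes the place of bacterial S18, measured 3.65 and 3.47 in halofuginone K6 and K5, against 3.51 and 3.65 in the controls (change -0.01, SE 0.27). The treated and control arrays of both paralogs overlapped.

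The other members with higher signal had smaller changes, and none passed. Mrps7, whose bacterial homologue S7 starts assembly of the small subunit head, measured 4.66 and 4.43 in halofuginone K6 and K5, against 3.53 and 3.90 in the controls (change 0.83, SE 0.30, limma adjusted p = 0.145). Mrpl19, a large subunit protein with a bacterial homologue, measured 1.76 and 1.92 in halofuginone K6 and K5, against 1.13 and 0.98 in the controls (change 0.78, SE 0.27). Mrps26, a mitochondrion-specific small subunit protein, measured 5.01 and 4.86, against 4.19 and 4.16 (change 0.76, SE 0.26). The treated arrays of all 3 lay above the controls, which choosing them by the size of the change favours. Mrpl52, a mitochondrion-specific large subunit protein, measured 5.11 and 5.76 in halofuginone K6 and K5, against 4.43 and 5.16 in the controls. These overlap because K5 was higher than K6 under both treatments (change 0.64, SE 0.26). Its second probe was above background on none of the 4 arrays, at -7.27 and -7.21 in halofuginone K6 and K5, against -6.53 and -6.45 in the controls. With that unmeasured probe averaged in, the change was -0.051. Mrpl12 measured 4.30 and 5.02 in halofuginone K6 and K5, against 4.01 and 4.02 in the controls, with a wider gap in K5 (change 0.64, SE 0.31).

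The count of passing members changed with the setting. Mrpl34, Mrps36, Mrpl43, Mrps25 and Mrps33 passed as lower and Mrps18b as higher when only genes above background on all 4 arrays were tested, when the spread followed signal strength, and with normexp background correction, settings under which 25.2%, 22.0% and 28.8% of all tested genes passed. No gene of the whole table passed when any 1 of the 4 arrays was left out, in a fit without the line, or with all 4 arrays in a fit without the line, so the calls of other genes given below were lost there too.

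Probes of 1 gene mostly gave like changes. Of 30 members with more than 1 probe, 26 had more than 1 measured probe. Their probes' changes spanned a median of 0.17 log2 units, within 0.5 for 20 of the 26, and the sign differed for 6 (Mrpl38, Mrpl44, Mrpl48, Mrps14, Mrps18a and Mrps18c). The widest span was that of Mrpl48, a central protuberance protein, from -0.14 to 0.97. No member had 1 probe 2-fold lower and another 2-fold higher.

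Between the lines, no member passed either: 0 of 77 differed, against 0.173% of all tested genes, and 1 did at an unadjusted p under 0.05, against 15.5%. The median log2 difference, K6 minus K5, was -0.15, against -0.03 over all tested genes. Under both treatments 35 members were lower in K6 and 17 higher, and 25 went opposite ways. Of the 19093 tested genes 6583 were lower, 5896 higher and 6614 opposite. Cytosolic ribosomal protein genes had a median of -0.40, with 67 of 77 lower and 1 higher. Complex I subunit genes had -0.25, with 19 of 36 lower and 12 higher. Mrpl55, a large subunit protein, was the member with an unadjusted p under 0.05. It measured 2.27 in K6 and 3.68 in K5 with halofuginone, and 2.01 in K6 and 2.87 in K5 with DMSO (difference -1.13, SE 0.29, limma adjusted p = 0.228). Mrps28, a small subunit protein that in the structure takes the place of part of bacterial S1, measured 2.44 in K6 and 3.81 in K5 with halofuginone, and 2.93 in K6 and 3.43 in K5 with DMSO (difference -0.94, SE 0.34). K6 lay below K5 under both treatments for both genes. Mrpl52 had a difference of -0.69 and Mrps16, a homologue of bacterial S16, also of -0.69, each lower in K6 under both treatments. The largest differences with K6 higher were those of Mrpl54 (0.67), Mrps11 (0.45), Mrpl35 (0.44) and Mrpl20 (0.41), all large subunit proteins but Mrps11. Mrpl35 measured -3.86 in K6 and -4.27 in K5 with halofuginone, and -3.54 in K6 and -3.999 in K5 with DMSO. It was the only member below the 75th percentile of the array on all 4 arrays.

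The halofuginone change itself varied most between lines for Mrpl34, which had a K6 minus K5 difference of -1.62 in log2 change. Mrps34, a mitochondrion-specific small subunit protein, had -0.95, with a change of -1.23 in K6 and -0.28 in K5, and Mrpl41 had -0.89. In the other direction Mrpl45, which docks the ribosome on the inner membrane, had 0.85, Mrpl54 had 0.82 and Mrpl33 had 0.73. Mrpl54 measured 3.83 in halofuginone K6 and 2.76 in halofuginone K5, against 2.91 in control K6 and 2.65 in control K5. With 1 array per line and condition these differences could not be tested.

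Other genes that make and run the mitochondrial ribosome were taken by list. Of 7 tested mitoribosomal proteins under other names, 0 passed, with a median log2 change of 0.39; this list shares Mrpl57 with the 77 members. Of 15 tested mitochondrial translation factors 0 passed (median 0.03). Of 25 tested assembly factors, Mterf3, a factor of large subunit assembly that also acts on mitochondrial transcription, rose by 1.65 (SE 0.27, limma adjusted p = 0.048), and no other passed in either direction. Changes over the list ran from -1.67 to 1.65, with 11 higher and 5 lower in both lines. At an unadjusted p under 0.05 (limma), 4 were higher, against 17.2% of all tested genes, and 3 lower, against 16.9%. Mterf3 measured 1.54 in halofuginone K6 and 1.32 in halofuginone K5, against 0.05 in control K6 and -0.50 in control K5. Of 13 tested regulators of mitochondrial transcription and biogenesis, only Myc passed. It rose by 2.21 (SE 0.32, limma adjusted p = 0.044), with 4.83 in halofuginone K6 and 4.22 in halofuginone K5, against 2.23 in control K6 and 2.41 in control K5. Gabpb1, the partner subunit of the ETS factor GABP, had a change of 1.37 (limma adjusted p = 0.061). Pprc1, a coactivator of the same programme, had 1.47 (limma adjusted p = 0.055), and Nrf1 had 1.03 (limma adjusted p = 0.094). None of these 3 passed. Over the 13 regulators 7 were higher and 1 lower in both lines, and 5 went opposite ways. Gabpa had a change of 0.47 (limma adjusted p = 0.292), Ppargc1a 0.11, Tfam -0.003 and Esrra -0.27.

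Some members share their start region with another gene, as they lie head to head. Of the 68 members with a promoter in the RefSeq table, 26 had a start on the opposite strand within 1000 bases upstream. The share of all genes with such a start was not counted. This search was added with the members' values known. For 23 of the 26 members the partner was tested, at a median distance of 141 bases between starts and 32 to 935 in all. The sign of the change agreed in 15 of the 23 pairs, in which Mrpl46 and Mrps11 appear under both names because they face each other. Across these pairs Pearson's r was 0.49 and Spearman's rho 0.33, a description only, as all values come from the same 4 arrays.

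Of the 23 tested partners 3 passed, against 8.96% of all tested genes in either direction, and none of their members did. Eme1, which encodes a DNA endonuclease subunit and faces Mrpl27 at 48 bases, measured -4.75 in halofuginone K6 and -3.75 in halofuginone K5, against -1.84 in control K6 and -1.16 in control K5. It fell by 2.75 on the log2 scale (SE 0.27, limma adjusted p = 0.036). Mrpl27, a large subunit protein with a bacterial homologue near the peptidyl transferase centre, measured 2.23 and 2.65 in halofuginone K6 and K5, against 2.96 and 3.19 in the controls (change -0.63, SE 0.26). Klc4, a kinesin light chain gene that faces Mrpl2 at 141 bases, fell by 1.80 on the log2 scale (SE 0.26, limma adjusted p = 0.044), and Mrpl2, a core large subunit protein, had a change of -0.38 (SE 0.29). Ppp1r10, a regulatory subunit of protein phosphatase 1 at 756 bases from Mrps18b, rose by 2.19 (SE 0.36, limma adjusted p = 0.048). It measured 6.90 in halofuginone K6 and 5.44 in halofuginone K5, against 4.19 in control K6 and 3.76 in control K5. Mrps7 and its partner Gga3, at 224 bases, had changes of 0.833 and 0.999. Other partners with a change of at least 2-fold did not pass. Ncapd2, a condensin subunit gene at 614 bases from Mrpl51, had a change of -1.16 with Mrpl51 at 0.12 (SE 0.26). Helq, a DNA helicase gene at 159 bases from Mrps18c, had 1.01 with Mrps18c at -0.01 (SE 0.27). Both members went opposite ways in the lines, so the sign of their change in the fit is not settled.

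**Figure D4:**
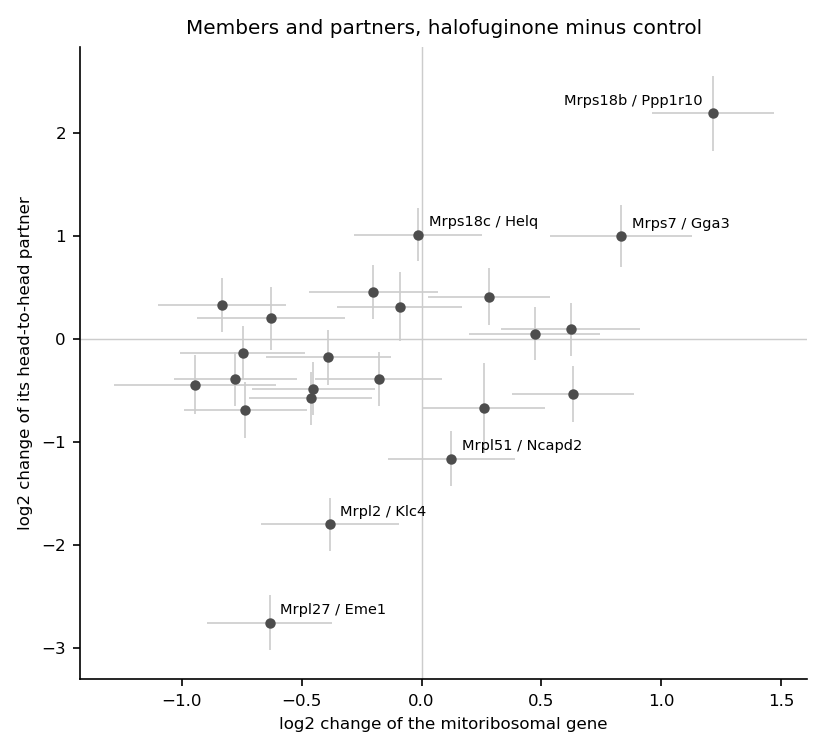
Log2 change after halofuginone, halofuginone minus control in the fit over both lines, of each of the 23 members with a tested head-to-head partner (horizontal) and of that partner (vertical); bars are standard errors of the fit. Pairs whose partner changed by about 2-fold or more are named. Ppp1r10 lies at 2.19 with Mrps18b at 1.21, and Eme1 lies at -2.75 with Mrpl27 at -0.63.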

How the data were processed

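Total RNA was labelled with Cy3 and hybridised to one-colour Agilent arrays, per the labels' protocols. The deposited intensity is the processed signal, background-subtracted by Feature Extraction 10.7.1.1 per the file headers; the submitters' processing notes name 9.5.1.1. The authors' deposited table of normalized intensity was an alternative. Control spots and outliers were removed, and each probe took the mean of its spots. Values are log2 signal minus the 75th percentile of the array. The brightest probe stood for a gene, and 2 arrays above background were required for testing with limma 3.58.1 in R 4.3.3 (line and treatment, 1 residual degree of freedom, Benjamini-Hochberg over 19093 genes). The fit was checked on simulated data with planted changes larger than any member's change in the fit. The simulated treatment effect did not differ between lines. That check does not bear on changes of the members' size. The numbers in the sample names, 5 and 6, are the lines, so they pair the samples and the line was the block. An exact permutation of 2 against 2 arrays cannot go below p = 0.333. The number of arrays limits precision. The members, lists, and motifs were chosen with earlier results of these data known. Named were the 6 largest changes each way of the same sign in both lines, the 4 largest line differences each way, the 3 largest differences of change each way, the 3 brightest and dimmest members, the Mrps18 paralogs and list genes that passed. Some list genes that did not pass were also named, outside this rule. Probe coordinates are those of the files, on mm9, and promoters are RefSeq, on GRCm38.p6. One marker gene is not reported here.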

Additional observations from a re-analysis of the deposited data

Results flagged for a closer look

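The following members chosen for naming went opposite ways in the lines under halofuginone; each line has 1 array per treatment, and the differences were not tested. Mrps28 had a log2 change of -0.49 in K6 and 0.38 in K5, a K6 minus K5 difference of -0.87. Mrpl45 had 0.17 in K6 and -0.67 in K5, a difference of 0.85. Mrpl33, a homologue of bacterial L33, had 0.38 in K6 and -0.35 in K5, a difference of 0.73. Mrps18a had 0.04 in K6 and -0.34 in K5 (0.39), Mrps18c 0.14 and -0.17 (0.32), and Mrpl51 0.26 and -0.01 (0.27).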

How the results depend on the processing

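The count of members that passed after halofuginone, 0 lower and 0 higher, became 5 lower and 1 higher with the filter on all 4 arrays, 8 and 2 with an intensity trend, and 8 and 4 with normexp; it stayed at 0 under the other settings, leaving out each array included (0 to 0). Calls over all genes numbered 1710 here, 4012 with the filter, 4207 with the trend, 5502 with normexp and 597 with the mean over probes; no gene passed, at 6483 to 15053 with an unadjusted p under 0.05, with the 75th percentile of probes above background on all 4 arrays or with no filter. With no replicate block no gene passed either, so the 0 members there says nothing about the members and the calls of other genes were lost; 13 members and 4492 of all genes had an unadjusted p under 0.05. Between lines, normexp gave 1 member lower in K6 (Mrpl55, adjusted p = 0.030, limma). The members' median change of -0.07 became -0.16 with quantile normalization, -0.12 with median centring, -0.19 with the percentile of detected probes (which moved the median of all genes to -0.115), -0.016 with normexp, 0.034 with the mean over probes and -0.16 with the authors' table, and ran from -0.026 to 0.022 with 1 line left out. The subunit difference kept its sign in all settings except in K5 alone. Among the 26 named members, 23 values under these settings gained a call. Signs turned for Mrpl33, from 0.015 to -0.015 (quantile), -0.039 (median centring), -0.11 (detected probes) and -0.013 (authors' table). They also turned for Mrpl52 (-0.051) and Mrps18a (0.10) with the mean over probes. For Mrpl52 that mean takes in a probe above background on none of the 4 arrays. Mrps18c turned with normexp (0.056) and the mean over probes (0.018). The causes were not tested.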

Other observations

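The remaining lists bear on mitochondrial protein synthesis and quality. Of 17 tested mitochondrial tRNA synthetases, 6 were higher and 8 lower in both lines after halofuginone, and 1 (Mars2) passed, a gene that entered the test only through the treated arrays. Mars2, the mitochondrial methionyl-tRNA synthetase, measured -2.37 in halofuginone K6 and -2.60 in halofuginone K5 and was not well above background on either control array, so it was at least 3.31-fold higher after halofuginone (limma adjusted p = 0.043, which rests on control values below background); the bound sets the mean of the treated arrays against the lowest signal above background on each control array. Fars2 had a change of -1.40 (SE 0.26, limma adjusted p = 0.054) and Rars2 of 1.07 (SE 0.26, limma adjusted p = 0.078). Sars2, which faces Mrps12, had -0.69.

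Of 11 tested genes of the mitochondrial unfolded protein response, 8 were higher and 3 lower in both lines, and Hspa9 and Atf5 passed. Of all 19093 tested genes, 7393 were higher and 7252 lower in both lines, and 3.88% passed as higher. The 3 lower genes, none of which passed, were Oma1 (change -0.88), Spg7 (-0.59) and Yme1l1 (-0.13). Hspa9, the matrix chaperone of the Hsp70 family, rose by 2.29 (SE 0.31, limma adjusted p = 0.042), with 6.67 in halofuginone K6 and 6.29 in halofuginone K5, against 4.04 in control K6 and 4.33 in control K5. Atf5, a transcription factor of that response, measured 8.11 and 7.65 after halofuginone in K6 and K5, against 3.02 and 3.35 in the controls. Lonp1, the matrix protease, had a change of 1.44 (SE 0.37, limma adjusted p = 0.085).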
